A study of Mus musculus with 10 samples.

Results

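The genes described here are 36 antioxidant and pentose phosphate genes, chosen by symbol: the 2 proteins of the NRF2 switch, 5 genes of glutathione synthesis and recycling, 5 of the thioredoxin system, 6 peroxiredoxins, 6 superoxide and peroxide enzymes, 6 conjugating and quinone enzymes, 2 metallothioneins and 4 enzymes of the pentose phosphate pathway. Each of the 36 was found once among 21938 protein-coding genes in all 10 libraries, and all 36 were among the 11564 genes tested, those with at least 10 reads in at least 3 libraries. RNA was sequenced from tumour-associated macrophages, the macrophages that live inside a tumour, which were sorted from mammary tumours grown for 5 weeks from PyMT cells, mammary tumour cells named after the polyoma middle T antigen. All mice were C57BL/6, and each received tumour cells in 2 mammary glands. In the control group (3 libraries) both the mice and the tumour cells were WT. In the Mertk KO group (4 libraries) WT tumour cells grew in mice whose macrophages lacked Mertk, a receptor for dying cells. In the Ptdss1 knockdown group (3 libraries) the mice were WT and the tumour cells carried a knockdown of Ptdss1, an enzyme that makes phosphatidylserine, the lipid that marks dying cells. So the macrophages themselves were altered only in the Mertk KO group, and the tumour cells only in the Ptdss1 knockdown group. The driver of the Mertk deletion, the knockdown method, and the ages and sexes of the mice are not stated in the labels. Nor is it stated that libraries came from separate mice, and p-values here reflect only library-to-library spread, part of which may be technical.

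As background, macrophages make superoxide and hydrogen peroxide when they engulf and kill, and they need enzymes that keep these oxidants from damaging the cell itself. Superoxide dismutases turn superoxide into hydrogen peroxide, and catalase, glutathione peroxidases and peroxiredoxins break the peroxide down. Glutathione and thioredoxin supply the electrons, and NADPH from the pentose phosphate pathway recharges both. The transcription factor NRF2 (gene Nfe2l2) drives many of these genes. Its partner KEAP1 holds it for degradation until oxidants or reactive chemicals modify KEAP1. NRF2, paired with a small Maf protein, binds the antioxidant response element, a short DNA motif with the core TGACNNNGC, where N is any base. Metallothioneins are small cysteine-rich proteins that bind zinc and copper, and the factor MTF1 drives them through the metal response element, with the core TGCACNC or TGCGCNC.

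The members' promoters are shown first because both of these motifs can be read from them. RefSeq promoter windows of GRCm38.p6, reaching from 250 bases before to 50 bases after an annotated start, were matched for 33 of the 36 members, and some members have several starts, which gave 42 windows. Gclc, Gsr and Prdx6 had no entry. The core TGACNNNGC stood on either strand in 10 of the 42 member windows (23.8%), beside 4071 of all 32851 windows of the same length (12.4%). A match is a run of letters and not a measured binding site. One match from each of the 10 genes is printed 5′ to 3′ in the direction of the motif, with the core in capitals and 6 bases on each side.

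Nfe2l2: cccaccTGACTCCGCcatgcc
Srxn1: tcactcTGACCTAGCtgccca
Gclm: gagagtTGACGGTGCgcccgg
Prdx1: gggggaTGACTCAGCgctttc
Txnrd1: tcagaaTGACAAAGCaaaaat
Mgst1: gcctccTGACCGTGCcaagcc
Sod1: tgagtcTGACCACGCccacct
G6pdx: gtgcttTGACTGAGCtgaccc
Pgd: cagagcTGACATTGCactgat
Mt2: ggggtgTGACTCAGCgcgggg

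Prdx1 and Mt2 carried the same core letters, TGACTCAGC, at 133 and 79 bases before their starts. The Nfe2l2 gene itself carried a match 240 bases before its start. The matches of Mgst1, Sod1 and G6pdx began 56, 56 and 57 bases before the start, and those of Srxn1 and Pgd lay past it. Txnrd1 has 3 annotated starts, and Mgst1 and Pgd have 2 each; in each of these genes only 1 window held the match. The metal response element core stood in 12 of the 42 member windows (28.6%), close to its share of all windows (25.7%). Mt1 held 3 copies and Mt2 held 4, with no other motif marked in the full windows below, where capitals mark the core on either strand. The Mt1 window is chr8:94178839-94179138 and the Mt2 window is chr8:94172368-94172667, both on the plus strand of GRCm38.p6.

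Mt1: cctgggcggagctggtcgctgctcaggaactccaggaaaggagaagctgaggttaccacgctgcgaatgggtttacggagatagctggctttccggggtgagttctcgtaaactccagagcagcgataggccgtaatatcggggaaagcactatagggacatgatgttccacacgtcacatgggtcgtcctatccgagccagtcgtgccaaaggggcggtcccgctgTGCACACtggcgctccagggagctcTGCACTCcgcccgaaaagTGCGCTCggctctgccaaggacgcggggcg
Mt2: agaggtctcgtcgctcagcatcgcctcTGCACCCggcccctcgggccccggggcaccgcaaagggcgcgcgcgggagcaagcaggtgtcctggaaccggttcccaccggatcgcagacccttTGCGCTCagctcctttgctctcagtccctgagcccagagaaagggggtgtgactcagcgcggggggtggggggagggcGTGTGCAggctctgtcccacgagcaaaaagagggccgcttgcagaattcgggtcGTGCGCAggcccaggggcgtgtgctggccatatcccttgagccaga

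The libraries held 10292592 to 25815071 reads assigned to genes. They differed in how many genes they captured. Among genes that reached 10 reads in at least 7 other libraries, Ptdss1 knockdown replicate 1 missed 31.5% and control replicate 2 missed 13.1%, and the other 8 libraries missed between 0.108% and 8.60%. The values of these 2 libraries are therefore shown throughout, and the results that rest on them are also given without them. The libraries matched the labelled cell type: all 12 macrophage markers on a fixed list were detected. The log2 of their summed normalised reads (plus 1) was 18.7 to 19.6 in every library. Such a sum, used for every marker list below, is set mostly by the most abundant genes of its list. In bulk RNA, fewer cells of a type and less RNA per cell cannot be told apart. Levels below are log2(normalised reads + 1) unless another scale is named.

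The antioxidant genes were abundant in these macrophages. Per kilobase of annotated exon, the only scale on which different genes are compared here, the members had a median of 420 normalised reads over the 10 libraries, beside 77.0 for all genes tested. Of the 36 members, 15 lay in the top 10% of tested genes. Gpx1, a glutathione peroxidase, led with 23060 normalised reads per kilobase and ranked 29 among the 11564 genes. Prdx5, a peroxiredoxin of mitochondria, peroxisomes and cytosol, followed with 10842, then Txn1, cytosolic thioredoxin, with 9092, Mt1 with 7676 and Prdx1 with 6635. At the other end stood Gclm, the helper subunit of glutathione synthesis, with 61.9, glutathione synthetase Gss with 28.0 and the quinone reductase Nqo1 with 22.4. Keap1 stood at 141 and Nfe2l2 at 1436 normalised reads per kilobase. The measure divides by all annotated exon bases of a gene, 3970 for Sod1 and 10008 for Sod2, whichever of them the macrophages transcribe.

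**Figure D1:**
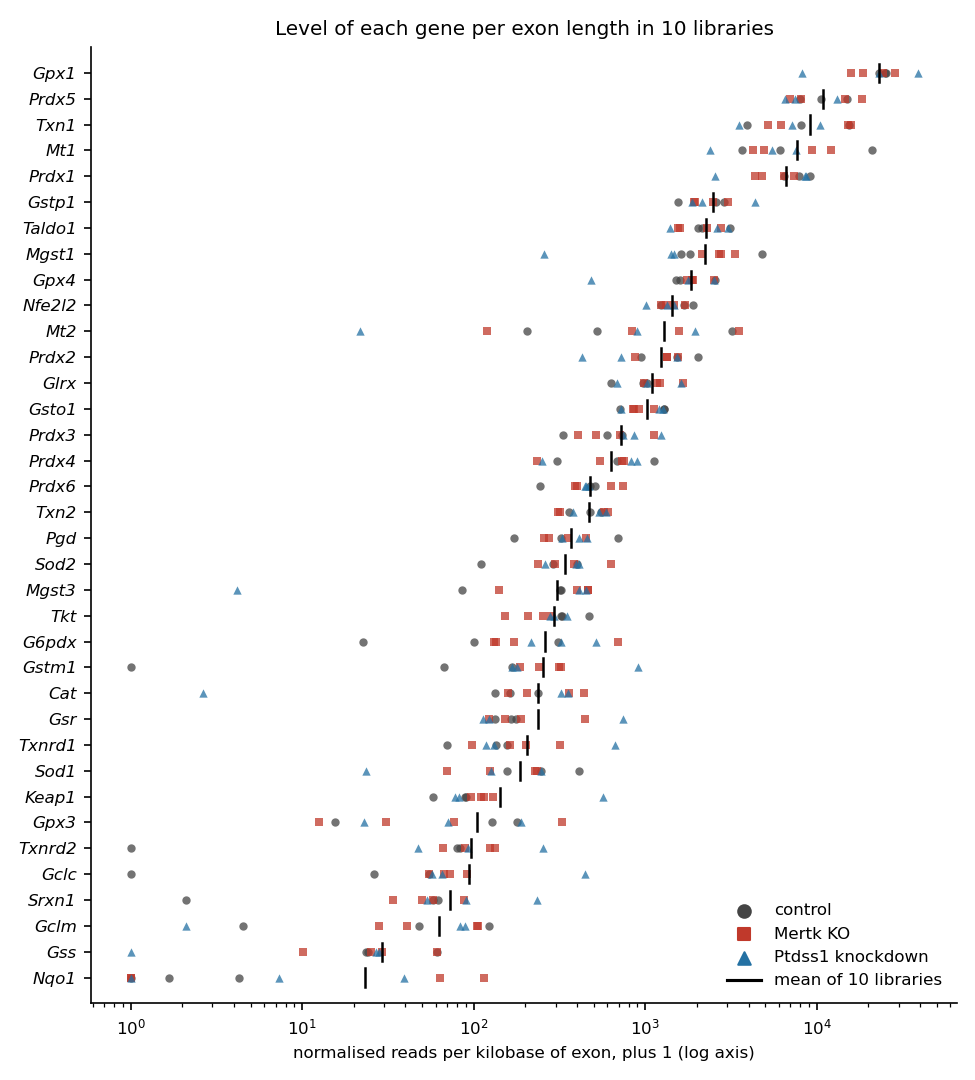
Normalised reads per kilobase of annotated exon plus 1 (log axis) for each of the 36 members, in order of their mean, with 1 point per library marked by group and a black tick at the mean of the 10 libraries. Gpx1 is highest, at a mean of 23060, and Nqo1 lowest, at 22.4; the scatter of points is widest for the low members.

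The members varied less from library to library than most genes. The median SD of the log2 level over the 10 libraries was 0.853 for members and 1.69 for all genes tested, and without the 2 libraries that missed most genes it was 0.506 and 0.762. The members were also more abundant than most genes, and this comparison was not matched for level. Nfe2l2 (SD 0.27), the glutathione transferase Gsto1 (0.34) and mitochondrial thioredoxin Txn2 (0.38) were the steadiest. Nqo1 (3.00), mitochondrial thioredoxin reductase Txnrd2 (2.83) and the glutathione transferase Gstm1 (2.81) varied most over the 10 libraries. Without the 2 libraries that missed most genes, Nqo1 (3.12) still varied most, followed by Gpx3 (1.64) and Mt2 (1.59). Txnrd2 (0.48) and Gstm1 (0.71) then varied much less. Of the 36 members, 27 (75.0%) had at least 10 reads in all 10 libraries, beside 52.4% of tested genes. Of the 72 lowest and highest member values, 36 fell in the 2 libraries that missed most genes. Of these, 26 were lows and 10 were highs. All members together took 0.977% ± 0.126 (SD, n = 3) of reads in control, 0.974% ± 0.251 (SD, n = 4) in Mertk KO and 0.881% ± 0.416 (SD, n = 3) in Ptdss1 knockdown, and these ranges overlapped.

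**Figure D2:**
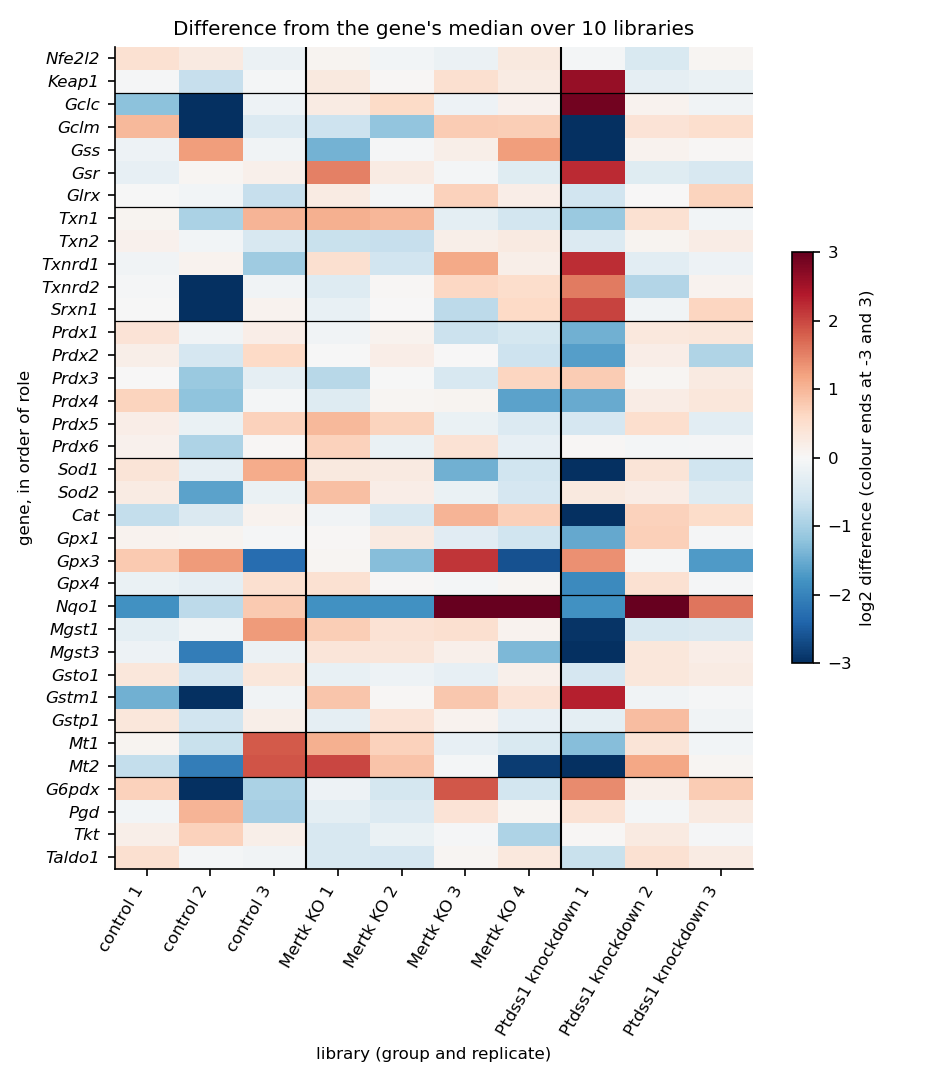
Heat map of each member's log2 level minus its median over the 10 libraries (colour ends at -3 and 3), with members as rows by role and libraries as columns by group. Control replicate 2 and Ptdss1 knockdown replicate 1 hold 36 of the 72 row extremes; the other columns are paler.

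The first comparison asked whether macrophages without Mertk expressed these genes at other levels than control macrophages in the same kind of tumour. No member passed the test (limma-trend, Benjamini-Hochberg adjusted p below 0.05), where 0.0173% of all tested genes did, that is 2 genes. At an unadjusted p below 0.05 there was 1 member, and 238 of all genes (2.06%); limma voom, fitted on the reads, also called 0 members and had 1 member at that unadjusted p. The members' fold changes had a median of 0.20 on the log2 scale, with 22 positive and 14 negative, beside a median of 0.02 over all genes, 50.9% of them positive. Without control replicate 2 alone, the members' median was -0.05, with 16 positive and 20 negative, beside -0.08 over all genes, so the lean to positive values rested on that library. Keap1, Gclc and Gstm1 were higher in all 4 Mertk KO libraries than in all 3 control libraries, where 3.0% of tested genes were. Tkt alone was lower in all of them, where 2.62% of genes were. Counts this small are given as a description.

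The second comparison asked the same of macrophages from tumours of Ptdss1 knockdown cells, and it shares its control libraries with the first. No member was called, and 0.0% of all genes were. At an unadjusted p below 0.05 there were 3 members, Mgst1, Gclc and Gstm1, and 335 of all genes (2.90%); voom called 0 members and also had 3 at that unadjusted p. The median over members was -0.08, with 16 positive and 20 negative, beside -0.05 over all genes. Without knockdown replicate 1 the members split 26 positive to 10 negative, with a median of 0.24 beside 0.12 over all genes. Without that library and control replicate 2 they split 20 to 16, with medians of 0.05 and 0.02, so the direction turned on which libraries were kept. Gclc and Prdx3 were higher in all 3 knockdown libraries than in every control library, where 3.32% of genes were, and Mgst1 was lower, where 3.6% were. Upper-quartile size factors moved the median of all genes in this comparison to -0.23 and the members' split to 14 positive and 22 negative.

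In the direct comparison of Mertk KO with Ptdss1 knockdown, again no member and 0.0% of all genes were called. At an unadjusted p below 0.05 there was 1 member, Mgst1, and 431 of all genes (3.73%); voom called 0 members and also had 1 at that unadjusted p. The members' median was 0.01, with 18 positive and 18 negative, beside 0.11 over all genes. Without knockdown replicate 1 the members split 15 positive to 21 negative, with a median of -0.12 beside -0.11 over all genes. Upper-quartile factors moved the median of all genes to 0.30 and that of the members to 0.23, with the members at 27 to 9. Mgst1 was higher in all 4 Mertk KO libraries than in all 3 knockdown libraries, where 2.91% of genes were, and 0 members were lower in all of them, where 2.32% were.

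**Figure D3:**
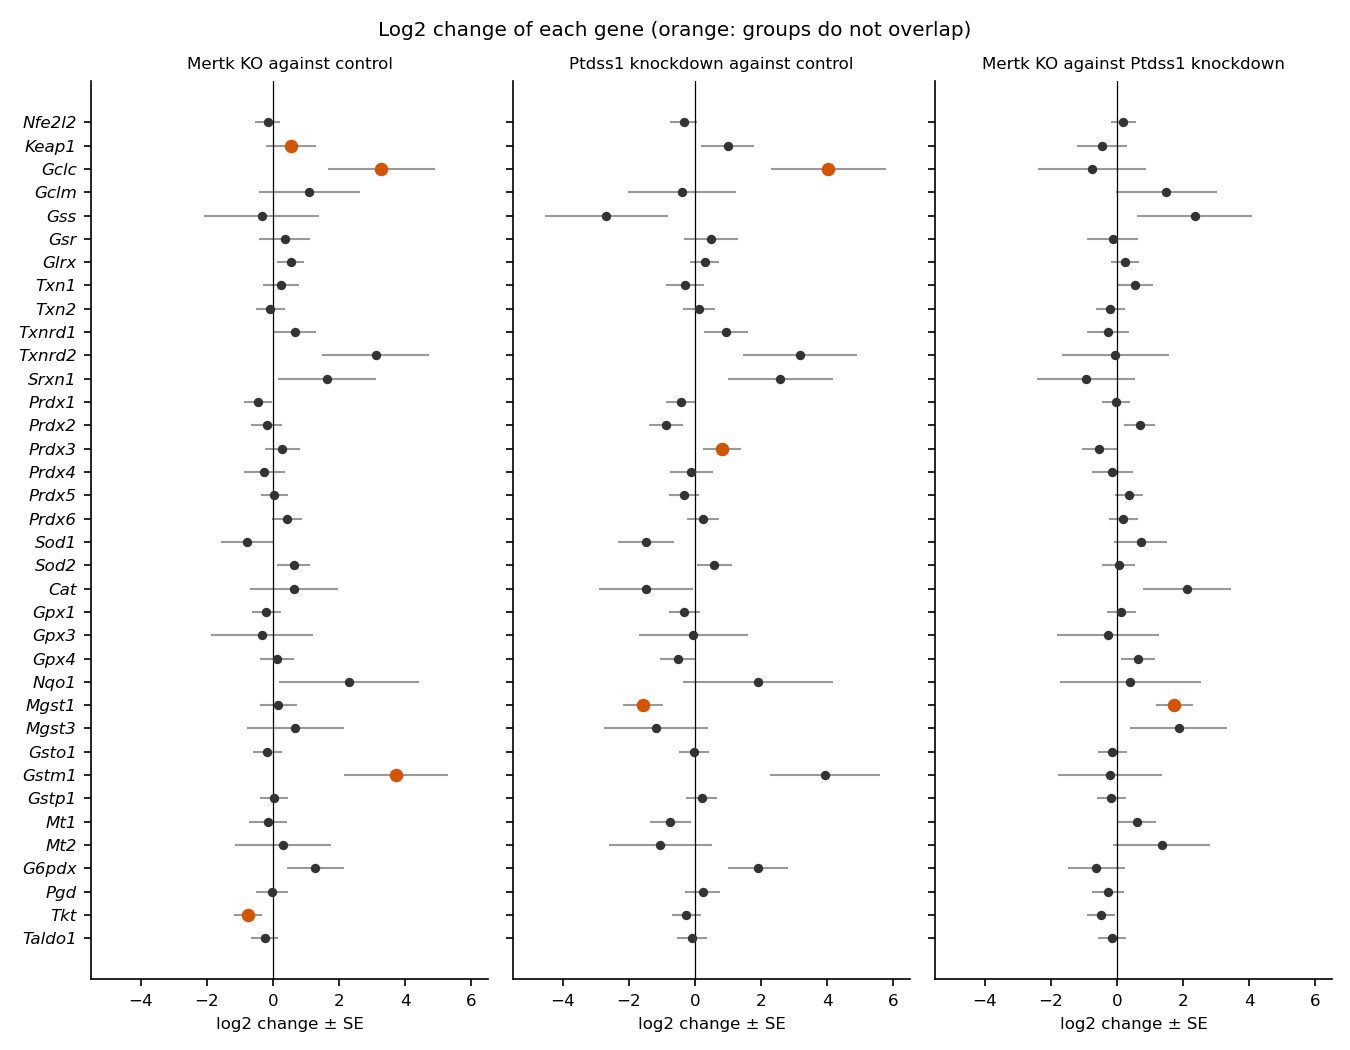
Log2 fold change with its SE (bars) for every member in each of the 3 comparisons, by role; orange points mark members whose groups do not overlap, and the vertical line marks 0. The widest bars belong to Nqo1, with SEs of 2.12 to 2.27, followed by Gss, with 1.74 to 1.86.

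The NRF2 switch differed little in its activator. Nfe2l2, which encodes NRF2, stood at 12.82, 12.65 and 12.20 in control, at 12.45, 12.28, 12.20 and 12.66 in Mertk KO, and at 12.30, 11.90 and 12.44 in Ptdss1 knockdown. The 3 groups overlapped. Keap1, its inhibitor, stood at 8.71, 8.07 and 8.70 in control, at 9.06, 8.80, 9.25 and 9.0 in Mertk KO, and at 11.38, 8.49 and 8.57 in Ptdss1 knockdown. All 4 Mertk KO libraries were above all control libraries, by little, and knockdown replicate 1 stood far above its group. The change of Keap1 in Mertk KO against control was 0.53 (SE 0.75, adjusted p = 1.0, limma), with a 95% interval from -1.05 to 2.12. Without control replicate 2 it was 0.32.

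Glutathione is made by the ligase of Gclc, its catalytic subunit, and Gclm, its helper subunit, and finished by Gss. Gclc stood at 6.59, 0 and 7.67 in control, at 8.07, 8.41, 7.67 and 7.96 in Mertk KO, and at 10.71, 7.93 and 7.72 in Ptdss1 knockdown. Control replicate 2 had 0 reads of it, while control replicate 3 and Mertk KO replicate 3 were equal to 2 decimals, so the groups only just failed to overlap; with median-of-ratios or upper-quartile factors they overlapped. The change was 3.28 (SE 1.62, adjusted p = 1.0) in Mertk KO and 4.03 (SE 1.73, adjusted p = 0.841) in Ptdss1 knockdown, both against control and both from limma. Without control replicate 2 these were 0.90 and 1.66, and without it and knockdown replicate 1 they were 0.90 and 0.70. Since the fold is measured against a group that holds a library with 0 reads, its size depends on the pseudocount.

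Gclm stood at 9.59, 4.52 and 8.20 in control, at 7.98, 7.42, 9.37 and 9.36 in Mertk KO, and at 2.99, 9.01 and 9.11 in Ptdss1 knockdown. Its lows were in control replicate 2, with 21 reads, and knockdown replicate 1, with 8 reads, and all groups overlapped. The 2 subunits of 1 enzyme thus went opposite ways in knockdown replicate 1, which held the highest Gclc and the lowest Gclm of all libraries. Gss ranged from 0 in knockdown replicate 1 to 8.48 in Mertk KO replicate 4. Gsr, the reductase that recharges glutathione, ranged from 8.28 in knockdown replicate 3 to 11 in knockdown replicate 1, and glutaredoxin Glrx from 11.76 to 13.15.

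In the thioredoxin system, Txn1 ranged from 11.85 to 14.03 and Txn2 from 10.36 to 11.31. Txnrd1, cytosolic thioredoxin reductase, ranged from 8.94 in control replicate 3 to 12.20 in knockdown replicate 1. Txnrd2, the mitochondrial enzyme, stood at 8.51, 0 and 8.44 in control, at 8.17, 8.60, 9.18 and 9.08 in Mertk KO, and at 10.11, 7.68 and 8.66 in Ptdss1 knockdown. Apart from control replicate 2, with 0 reads, the control libraries lay within the range of the Mertk KO libraries. Its change in Mertk KO against control was 3.10 (SE 1.62, adjusted p = 1.0, limma), and 0.28 without control replicate 2. Srxn1, sulfiredoxin, which repairs overoxidised peroxiredoxins, ranged from 2.05 in control replicate 2, with 3 reads, to 9.36 in knockdown replicate 1.

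Among the peroxiredoxins, Prdx1, the main cytosolic form, stood at 14.77, 14.26 and 14.56 in control, at 14.25, 14.46, 13.70 and 13.84 in Mertk KO, and at 12.93, 14.67 and 14.69 in Ptdss1 knockdown. The lowest value was in knockdown replicate 1, and the control and Mertk KO ranges overlapped through control replicate 2. Without the 2 libraries that missed most genes, Mertk KO lay wholly below control, where 6.73% of all genes did. It then also lay wholly below Ptdss1 knockdown, where 6.77% did. The change in Mertk KO against control was -0.46 (SE 0.43, adjusted p = 1.0, limma). Prdx2 stood at 12.18, 11.49 and 12.60 in control, at 11.99, 12.21, 12.00 and 11.37 in Mertk KO, and at 10.36, 12.19 and 11.10 in Ptdss1 knockdown. Knockdown replicates 1 and 3 were the lowest of all libraries and replicate 2 was in the range of the others. The change was -0.88 (SE 0.51, adjusted p = 0.841) against control, and -0.45 without knockdown replicate 1 or -1.37 without replicate 2. Mertk KO against Ptdss1 knockdown gave 0.68 (SE 0.48, adjusted p = 0.805, limma), with 0.25 and 1.17 on leaving out the same libraries.

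Prdx3, the mitochondrial form, stood at 10.08, 8.94 and 9.79 in control, at 9.22, 10.04, 9.57 and 10.69 in Mertk KO, and at 10.83, 10.11 and 10.32 in Ptdss1 knockdown. All 3 knockdown libraries were above all control libraries, the closest pair by a narrow margin, and the Mertk KO libraries spanned both. The change in Ptdss1 knockdown against control was 0.81 (SE 0.57, adjusted p = 0.841, limma), and 0.49 without control replicate 2. Without that library and knockdown replicate 1, the highest, it was 0.28. Mertk KO against Ptdss1 knockdown gave -0.54 (SE 0.53, adjusted p = 0.821), with values from -0.81 without Mertk KO replicate 4 to -0.32 without Mertk KO replicate 1. Prdx4, of the endoplasmic reticulum, ranged from 8.93 to 11.20, Prdx5 from 13.77 to 15.25 and Prdx6 from 10.18 to 11.80. With all 10 libraries kept, their groups overlapped in all 3 comparisons.

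Sod1, the cytosolic superoxide dismutase, stood at 9.94, 9.28 and 10.66 in control, at 9.84, 9.82, 8.10 and 8.94 in Mertk KO, and at 6.5, 9.93 and 8.96 in Ptdss1 knockdown. Knockdown replicate 1 was lowest, and the groups overlapped. Without the 2 libraries that missed most genes, Mertk KO and Ptdss1 knockdown both lay wholly below control, where 6.73% and 14.2% of all genes did. The change was -0.78 (SE 0.79, adjusted p = 1.0) in Mertk KO and -1.5 (SE 0.85, adjusted p = 0.841) in Ptdss1 knockdown, both against control with limma. The change in Mertk KO shrank to -0.43 on leaving out control replicate 3 and to -0.42 on leaving out Mertk KO replicate 3. It grew in size on leaving out control replicate 2. The change in Ptdss1 knockdown was -0.51 without knockdown replicate 1. Sod2, the mitochondrial dismutase, ranged from 10.11 in control replicate 2 to 12.63 in Mertk KO replicate 1.

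Catalase, Cat, stood at 8.44, 8.73 and 9.28 in control, at 9.05, 8.68, 10.17 and 9.88 in Mertk KO, and at 2.42, 9.86 and 9.72 in Ptdss1 knockdown. Knockdown replicate 1 had 5 reads of it, while the other 2 knockdown libraries were above all control libraries. Mertk KO against Ptdss1 knockdown gave 2.11 (SE 1.34, adjusted p = 0.805, limma), and -0.34 without knockdown replicate 1, so its direction turned on that library; without knockdown replicate 2 or 3 it was 3.38 or 3.31. Of the glutathione peroxidases, Gpx1 ranged from 13.52 in knockdown replicate 1 to 15.77 in knockdown replicate 2, and Gpx4, which removes lipid peroxides from membranes, from 9.71 to 12.11. Gpx3, a secreted form, ranged from 4.45 to 9.20, with its highest value in Mertk KO replicate 3 and its lowest in Mertk KO replicate 4.

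Nqo1, the quinone reductase often used as a readout of NRF2, was at or near 0 in most libraries. It stood at 0, 1.03 and 2.61 in control, at 0, 0, 7.46 and 6.61 in Mertk KO, and at 0, 5.91 and 3.43 in Ptdss1 knockdown. Only 4 libraries had at least 10 reads: 217 and 121 in Mertk KO replicates 3 and 4, and 63 and 16 in knockdown replicates 2 and 3. No control library reached 10 reads, but both altered groups also held libraries with 0. Beside it, the log2 of the summed reads of 10 markers of tumour epithelium was 9.01, 8.35 and 9.19 in control, 10.04, 10.003, 10.61 and 11.41 in Mertk KO, and 2.63, 9.62 and 9.89 in Ptdss1 knockdown. Mertk KO replicates 3 and 4, the 2 with the most Nqo1 reads, were also the 2 highest in these markers. The other libraries did not follow that order. Mertk KO replicates 1 and 2, at 10.04 and 10.003, had 0 Nqo1 reads. Knockdown replicates 2 and 3, lower at 9.62 and 9.89, had 63 and 16. The part of tumour cell RNA in the Nqo1 values was not tested.

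Mgst1, a membrane glutathione transferase, was the member of smallest unadjusted p in both comparisons with Ptdss1 knockdown. It stood at 11.66, 11.85 and 13.23 in control, at 12.70, 12.40, 12.45 and 12.08 in Mertk KO, and at 9.01, 11.47 and 11.53 in Ptdss1 knockdown. The 3 knockdown libraries were below the other 7, replicate 1 by far and the other 2 by little. The change was -1.57 (SE 0.61, adjusted p = 0.841) against control, and 1.73 (SE 0.57, adjusted p = 0.805) for Mertk KO against Ptdss1 knockdown, both from limma. Their 95% intervals, not adjusted for the number of genes, ran from -2.85 to -0.29 and from 0.54 to 2.93. Without knockdown replicate 1 they were -0.75 and 0.91.

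Gstm1 stood at 6.62, 0 and 7.95 in control, at 8.88, 8.09, 8.86 and 8.47 in Mertk KO, and at 10.38, 7.94 and 8.03 in Ptdss1 knockdown. All 4 Mertk KO libraries were above control, and knockdown replicate 2 was just under control replicate 3. The change was 3.72 (SE 1.57, adjusted p = 1.0) in Mertk KO and 3.93 (SE 1.68, adjusted p = 0.841) in Ptdss1 knockdown, both against control with limma. Without control replicate 2, which had 0 reads, they were 1.29 and 1.5, and without knockdown replicate 1 as well the latter was 0.70. Gstm1 has close relatives in the same gene cluster, so reads may have been split among them, and the same holds for Gstp1 and its near copy Gstp2. Gstp1 ranged from 11.23 to 12.73, Gsto1 from 10.49 to 11.35, and Mgst3 from 2.16 in knockdown replicate 1 to 8.99.

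The metallothioneins moved together from library to library. Mt1 stood at 12.89, 12.15 and 14.67 in control, at 13.88, 13.51, 12.58 and 12.37 in Mertk KO, and at 11.53, 13.21 and 12.74 in Ptdss1 knockdown. Mt2 stood at 8.27, 6.92 and 10.88 in control, at 11.01, 9.85, 8.94 and 6.14 in Mertk KO, and at 3.72, 10.16 and 9.05 in Ptdss1 knockdown. Control replicate 3 and Mertk KO replicate 1 were high in both genes, knockdown replicate 1 was lowest in both, and all groups overlapped. Over the 10 libraries Pearson's r was 0.89 (two-sided permutation p = 6e-05) and Spearman's rho 0.93 (permutation p = 0.00034). Without the 2 libraries farthest from the median of Mt1, r was 0.89 (exact permutation p = 0.00203). Without the 2 libraries that missed most genes, r was 0.82 (exact permutation p = 0.00174), and over deviations from the group means it was 0.89. This was the only relation computed, and its p-values are not adjusted. The pair was chosen after its values were seen, and these p-values take no account of that choice. The 2 genes are neighbours whose promoters, printed above, both carry the metal response element core, and their coding sequences are alike enough that some reads may fit both.

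**Figure D4:**
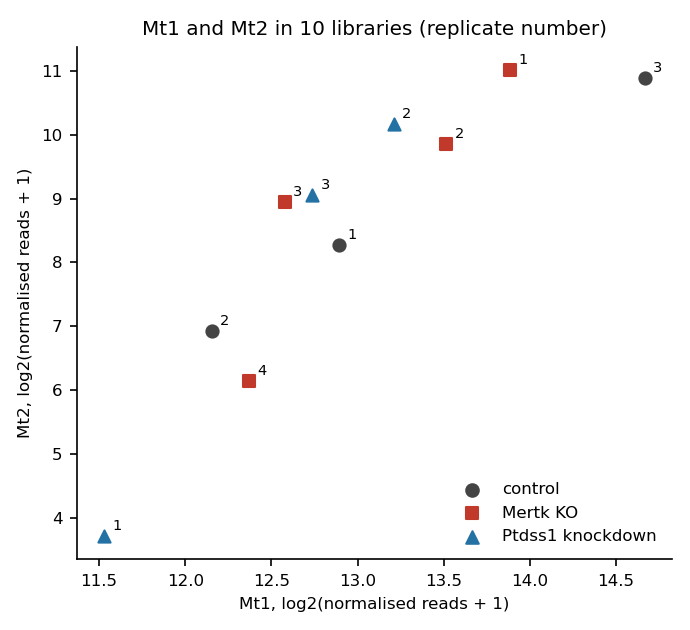
Log2 level of Mt2 (vertical axis) against that of Mt1 (horizontal axis), 1 point per library coloured by group. The points rise together from knockdown replicate 1, at 11.53 and 3.72, to control replicate 3, at 14.67 and 10.88 (r = 0.89 over 10 libraries).

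The pentose phosphate pathway splits into an oxidative arm that makes NADPH, with G6pdx at its entry and Pgd after it, and a non-oxidative arm of Tkt and Taldo1 that links it back to glycolysis. G6pdx stood at 9.90, 6.09 and 8.26 in control, at 9.04, 8.69, 11.06 and 8.65 in Mertk KO, and at 10.62, 9.37 and 9.96 in Ptdss1 knockdown. Control replicate 2, with 64 reads, was lowest, and control replicate 1 was within the knockdown range. The change in Ptdss1 knockdown against control was 1.90 (SE 0.91, adjusted p = 0.841, limma), 0.91 without control replicate 2, and 0.59 without that library and knockdown replicate 1. Mertk KO against Ptdss1 knockdown gave -0.63 (SE 0.85, adjusted p = 0.867), with -1.19 without Mertk KO replicate 3 and -0.31 without knockdown replicate 1. Pgd ranged from 10.10 in control replicate 3 to 12.12 in control replicate 2. Reads of G6pdx may be shared with its near copy G6pd2.

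Tkt, transketolase, gave the narrowest interval among the non-overlapping members. It stood at 11.23, 11.75 and 11.21 in control, at 10.57, 10.86, 11.02 and 10.13 in Mertk KO, and at 11.08, 11.32 and 11 in Ptdss1 knockdown. All 4 Mertk KO libraries were below all 3 control libraries, and the highest of them lay within the knockdown range. The change in Mertk KO against control was -0.75 (SE 0.42, adjusted p = 1.0, limma), with a 95% interval from -1.64 to 0.13. Over all alternatives it stayed between -0.88 and -0.56, but the call was never made. Mertk KO against Ptdss1 knockdown gave -0.49 (SE 0.42, adjusted p = 0.805), and -0.32 without Mertk KO replicate 4. Taldo1, transaldolase, ranged from 11.56 to 12.72, with its groups overlapping.

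**Figure D5:**
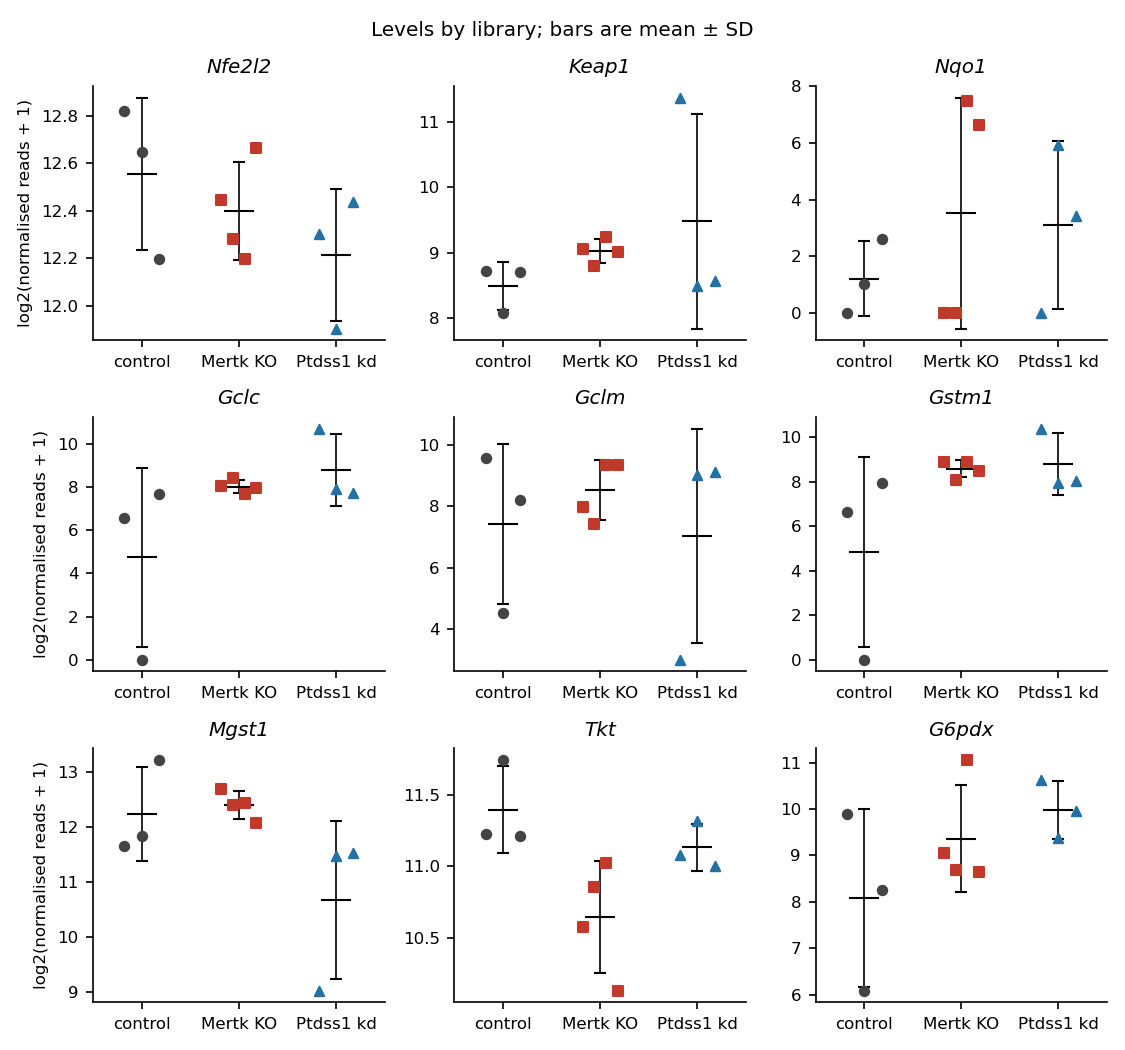
Log2 level in each library (points) with the group mean and SD (black bars) for 9 members, 1 panel per gene with its own vertical axis, in control, Mertk KO and Ptdss1 knockdown. The control points at 0 in the Gclc and Gstm1 panels are control replicate 2, and the low points of Gclm are control replicate 2 (4.52) and knockdown replicate 1 (2.99); Mgst1 and Tkt have no point at 0.

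Genes around these pathways were read from 6 further lists, and no gene of any list was called in any comparison. Of 23 other NRF2 targets and regulators, 11 were positive and 12 negative in Mertk KO against control, with a median of -0.02. Hmox1, heme oxygenase, had the smallest p among them and stood at 10.64, 8.60 and 11.46 in control, at 11.65, 10.84, 12.04 and 11.76 in Mertk KO, and at 11.40, 11.21 and 11.89 in Ptdss1 knockdown. Its control libraries overlapped both other groups, and control replicate 2 was again lowest. Of 28 other glutathione and thiol enzymes, 21 were negative in Ptdss1 knockdown against control, with a median of -0.68. Over all genes the median was -0.05, with 48.0% positive. Without the 2 libraries that missed most genes, 19 were negative, with a median of -0.35 beside 0.02 over all genes. Gstm5 was the gene of smallest p in Ptdss1 knockdown against control, at 7.53, 9.68 and 8.70 in control and 1.85, 5.31 and 7.87 in Ptdss1 knockdown. In Mertk KO against Ptdss1 knockdown, 19 of the 28 were positive, with a median of 0.97. Without the 2 libraries that missed most genes, 14 were, with a median of 0.02. Of 21 gene entries for 20 other pentose phosphate and NADPH enzymes, 15 were negative in Mertk KO against control, with a median of -0.31. Over all genes the median was 0.02, with 50.9% positive.

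Glycolysis, which feeds glucose 6-phosphate to the pentose phosphate pathway, had the most one-sided counts. Of 18 tested genes, 17 were positive in Mertk KO against control, with a median of 0.46 beside 0.02 over all genes. In Ptdss1 knockdown 16 were positive, with a median of 0.45 beside -0.05, and these comparisons share the control libraries. With upper-quartile factors the counts were 17 and 13, and without the 2 libraries that missed most genes 15 and 12. Tpi1, triose phosphate isomerase, stood at 12.84, 12.78 and 13.42 in control, at 13.86, 13.39, 13.74 and 13.96 in Mertk KO, and at 13.95, 13.29 and 14.54 in Ptdss1 knockdown. Control replicate 3 overlapped both other groups. In 10 genes of NADPH oxidase and other oxidant sources, 7 were positive in Mertk KO against control, with a median of 0.17. Nos2, inducible nitric oxide synthase, ranged from 3.27 in knockdown replicate 1 to 12.28 in Mertk KO replicate 1. In 12 genes of metal handling, 6 were positive and 6 negative in Mertk KO against control. Slc11a2, an iron importer, stood at 6.21, 4.45 and 8.25 in control and at 7.85, 8.28, 9.58 and 9.12 in Mertk KO. In Ptdss1 knockdown it stood at 10.31, 8.71 and 8.31, above all control libraries, where 3.32% of tested genes were. The closest pair differed by little.

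Markers of other cells were low beside the macrophage markers. The tumour epithelium markers did not overlap between control and Mertk KO, with the values given above; 6 of the 10 had at least 10 reads in 3 libraries, and Cldn4 was at 0 in all. The 7 natural killer cell markers, of which 4 reached that level, also did not overlap. The log2 of their summed reads was 10.70 to 11.72 in control, 7.83 to 9.64 in Mertk KO and 9.92 to 11.08 in Ptdss1 knockdown. Fibroblast markers ranged from 4.31 to 5.88 in control, 1.30 to 10.05 in Mertk KO and 1.45 to 8.18 in Ptdss1 knockdown, with Lum at 0. Red blood cell markers were at most 3.63 in any library. T cell and B cell markers were at most 9.30 and 9.27, both in knockdown replicate 2. Adipocyte markers were at most 9.95, in Mertk KO replicate 4. Of 8 neutrophil markers, 2 reached 10 reads in 3 libraries and Ly6g, Camp and S100a9 were at 0; the sum was 12.46 in knockdown replicate 1, which held many of the members' extremes, and 8.72 to 10.56 in the other libraries. Endothelial markers, with 2 of 7 at that level and Cldn5 and Emcn at 0, were also highest in knockdown replicate 1, at 10.92, beside 8.72 to 10.23 elsewhere. Dendritic cell markers, with 4 of 7 at that level, stood at 12.95 in Mertk KO replicate 3 and at 6.40, 7.17 and 0 in the other Mertk KO libraries. They stood at 6.87 to 7.66 in control and at 1.45, 10.80 and 9.31 in Ptdss1 knockdown. Mertk KO replicate 3 also had the highest G6pdx, while knockdown replicate 1, at 1.45 for these markers, had the next highest. The part of these cells in the members' values was not tested.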

How the data were processed

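Libraries were made from amplified cDNA (16 PCR cycles) with a kit that does not mark strand, per the labels' protocols, so reads of antisense or overlapping genes cannot be told apart. Reads carry no molecular identifiers. The submitters' processing notes name STAR, RSEM and mm10, with no versions. The authors deposited 1 table per library of log2 values with a decimal comma. No header states the unit. Undoing log2(value + 1) gave equal steps in each library, and whole reads (within 0.01) for 100% of values. So the deposited log2 values are taken as normalised reads plus a pseudocount of 1, on a log2 scale.

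All 10 libraries entered 1 limma-trend fit (limma 3.58.1, R 4.3.3) with robust moderation, a mean per group and no covariate, over 11564 genes with at least 10 reads in 3 libraries. The fit was also tried on simulated reads in which no library lost genes, so that trial does not show how it performs on these libraries. Fold changes are on the log2(value + 1) scale, which understates low genes. Coordinates and exon lengths are from GENCODE M21 (GRCm38), and all 21938 IDs matched. The labels give no batch beyond 1 sequencing run. The members and lists were chosen with earlier results of these data known. Levels in every library are given for Nfe2l2, Keap1, Nqo1, Gclc, Gclm, G6pdx, Mt1, Mt2 and members named for a change. A change is named for members past the threshold, members whose groups do not overlap, and the 3 of smallest unadjusted p per direction and comparison. The 5 most abundant members, the 3 most and 3 least variable, and the 2 genes of smallest p per list are also named, the last by a few examples. Alternatives were other size factors, pseudocount, filters, voom, moderation, weights, a covariate, fewer groups and left-out libraries.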

Additional observations from a re-analysis of the deposited data

Results flagged for a closer look

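Of 36 groups looked at, the 4 Mertk KO libraries for each member, 2 had a library far from the others by Dixon's test. Chance gives about 1 in 20, and 2 of 36 is close to that share. Mgst3, a membrane glutathione transferase, stood at 7.27 in Mertk KO replicate 4, below 8.98, 8.99 and 8.77 in the other 3 libraries. G6pdx, the entry enzyme of the pentose phosphate pathway, stood at 11.06 in Mertk KO replicate 3, above 9.04, 8.69 and 8.65 in the others. Mertk KO replicates 3 and 4 missed 8.60% and 5.75% of commonly detected genes, more than replicates 1 and 2, which missed 1.19% and 0.216%. The log2 of the summed reads of 7 dendritic cell markers was 12.95 in Mertk KO replicate 3, beside 6.40, 7.17 and 0 in replicates 1, 2 and 4. This sum was 1.45 in knockdown replicate 1, the library with the next highest G6pdx (10.62). The part of either difference in these values was not tested.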

How the results depend on the processing

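Under 22 settings, 29 results gave 504 alternative values. Of these, 495 kept their direction and side of the threshold or, for a count, stayed within 1.5 times of it, and 0 members were called under any setting. For a change, this therefore means only that its sign was kept. Its size could still shrink far, as those of Gclc and Txnrd2 did above without control replicate 2. The change of Cat in Mertk KO against Ptdss1 knockdown (2.11) reversed to -0.66 with array weights and to -0.34 without control replicate 2 and knockdown replicate 1; leaving out each library in turn gave -0.34 to 3.38. Counts of members whose groups do not overlap moved without those 2 libraries, where smaller groups separate more often: lower in Mertk KO against control from 1 to 4 (all genes 6.73%), higher and lower in Ptdss1 knockdown from 2 to 8 (16.3%) and from 1 to 6 (14.2%), and in Mertk KO against Ptdss1 knockdown from 1 to 3 higher (5.92%) and from 0 to 3 lower (6.77%). With upper-quartile factors the count higher in Ptdss1 knockdown was 1, without Prdx3, and the count higher in Mertk KO against control went from 3 to 2, without Gclc, with those or median-of-ratios factors; the cause was not tested. Array weights called 25, 2 and 35 of all genes in the 3 comparisons, 0 of them members, with a smallest member adjusted p of 0.178 (limma). No paired analysis was possible because the labels give the groups no shared replicate numbers. Counts limit the 9 members with under 10 reads in 1 or more libraries (Gclc, Gclm, Gss, Txnrd2, Srxn1, Cat, Nqo1, Mgst3 and Gstm1). These counts did not follow total depth: knockdown replicate 1, with 23442827 reads, had 5 such members, and Mertk KO replicate 1, with 10292592, had 1. The printed intervals hold the changes compatible with these 3 or 4 libraries a group, and no smallest detectable difference was computed.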
